A study of Mus musculus with 4 samples.

Results

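The 9 genes described here are C1qa, C1qb, C1qc, C2, C3, C4b, Cfb, Cfp and Cd55, taken by symbol from a table of 24358 gene symbols. They encode components and regulators of complement. RNA was sequenced from CD301b macrophages (2 libraries), a macrophage subset bearing the lectin CD301b, and from F4/80-negative immune cells (2 libraries), which lack the surface protein most used to mark mouse macrophages. Both populations were sorted from the dermis of day 5 wound beds of 7-week-old male C57/Bl6 mice, and the labels give no genotype or treatment that separates them. No library of macrophages without CD301b was analysed here, so traits of the CD301b subset cannot be told apart from those of wound macrophages in general.

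Complement is a cascade of plasma proteins that tag microbes and dead cells for uptake and, at its end, can puncture membranes. The classical pathway begins when C1q, built from A, B and C chains, binds antibody or dying cells and its partner proteases cleave C4 and C2. The alternative pathway turns over C3 with factor B and properdin, and membrane proteins such as CD55 take the C3-cleaving enzymes apart on the body's own cells. Most complement proteins in plasma come from the liver, whereas C1q and properdin come largely from myeloid cells.

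Levels are FPKM (fragment counts divided by transcript length and by the library's mapped fragments), as the authors' single value per population and transcript, summed over the transcripts of a symbol. Values per library were not used here, so no spread between libraries accompanies them and the depth is unknown. An adjusted p is the Cuffdiff p that the authors' deposited table gives, after Benjamini-Hochberg adjustment over all tested transcripts, and a gene counted as higher or lower at 0.05 or less. The labels do not say whether the libraries came from separate animals, so these p-values may cover technical spread alone. Adgre1, which encodes F4/80, was at 557 FPKM in CD301b macrophages and 151 FPKM in F4/80-negative cells. Mgl2, which encodes CD301b, was at 49.2 FPKM in CD301b macrophages and 103 FPKM in F4/80-negative cells. Its RNA was thus lower in the population named for CD301b. The label of the F4/80-negative cells does not say whether they carried CD301b, and these values are RNA, not surface protein. All 12 macrophage markers listed were higher in CD301b macrophages (summed level 3643 FPKM in CD301b macrophages, against 1368 FPKM in F4/80-negative cells), and 10 of 12 dendritic cell markers were lower, with none higher (1756 FPKM in CD301b macrophages, against 3710 FPKM in F4/80-negative cells). Over all tested genes, 11.0% were higher and 6.20% lower. H2-Ab1, an MHC class II gene, made up most of the dendritic cell sum. The other 11 dendritic cell markers summed to 80.4 FPKM in CD301b macrophages and 340 FPKM in F4/80-negative cells. In such bulk samples, fewer cells of a type and less RNA per cell cannot be told apart.

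Of the 9 complement genes, 6 were higher in CD301b macrophages (C1qa, C1qb, C1qc, C4b, Cfb and Cfp), 1 was lower (C2) and 2 were not past the threshold (C3 and Cd55). Among all 13039 tested genes, 11.0% were higher, 6.20% were lower and 17.2% were either. The 9 genes were chosen with earlier results of these data known, so their counts beside these shares are a description only. At a stricter adjusted p of 0.01, 5 of the 9 were higher and 0 were lower, against 6.50% and 3.54% of tested genes. C4b and C2 were the genes that lost their call there. Before adjustment, the Cuffdiff p in the authors' deposited table was 0.0043 for C2 and 0.0086 for Cd55. The share of all tested genes at such an unadjusted p was not counted, so no call is drawn from these values. The median log2 fold of the 9 genes was 0.78 on the log2(FPKM + 1) scale, against 0.05 over all tested genes. All 9 had a transcript that the authors tested. Their levels ran from 3.88 to 2409 FPKM in CD301b macrophages and from 5.90 to 724 FPKM in F4/80-negative cells. The order of the levels, C1qb, C1qa, C1qc, Cfp, Cfb, C3, C4b, C2 and Cd55 in CD301b macrophages, differed in F4/80-negative cells only in that C3 stood above Cfb. Without a spread between libraries, neighbours in that order could not be separated by a test.

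**Figure D1:**
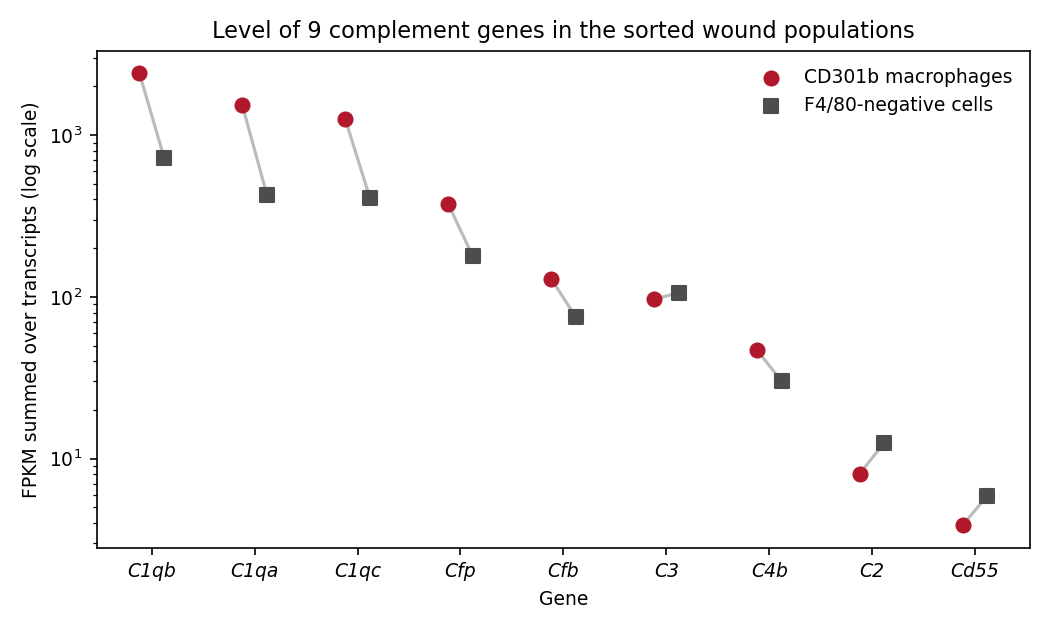
Level of each of the 9 complement genes in CD301b macrophages (red circles) and F4/80-negative cells (grey squares), as FPKM summed over transcripts on a log axis, 1 value per population and no error. The C1q chains lie at 1259 FPKM or more in CD301b macrophages, and C3, C2 and Cd55 are the genes whose circle lies under the square.

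The 3 C1q chain genes lie side by side on mouse chromosome 4. C1qa (NCBI gene 12259) spans 136895916 to 136898844, C1qc (12262) spans 136889801 to 136892936 and C1qb (12260) spans 136880126 to 136886200, all on the minus strand of GRCm38. The gap between C1qa and C1qc is 2979 bases and that between C1qc and C1qb is 3600 bases. The 250 bases before the RefSeq transcript start are shown for C1qb and C1qc because both genes lie in this cluster and both were higher, and the RefSeq promoter table used here had an entry for 5 of the 9 genes. Both are written 5′ to 3′ on the gene's strand (minus), from GRCm38.p6, with capitals marking matches to the motifs searched. C1qb covers chr4:136886201-136886450 and C1qc covers chr4:136892915-136893164. The C1qc window overlaps the C1qc span given above, so the transcript start used for C1qc lies inside that span.

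C1qb: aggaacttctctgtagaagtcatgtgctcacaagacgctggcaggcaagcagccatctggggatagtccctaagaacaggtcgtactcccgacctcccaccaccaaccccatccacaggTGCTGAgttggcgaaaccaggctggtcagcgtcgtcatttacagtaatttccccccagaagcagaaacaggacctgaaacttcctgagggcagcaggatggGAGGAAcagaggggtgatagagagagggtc

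C1qc: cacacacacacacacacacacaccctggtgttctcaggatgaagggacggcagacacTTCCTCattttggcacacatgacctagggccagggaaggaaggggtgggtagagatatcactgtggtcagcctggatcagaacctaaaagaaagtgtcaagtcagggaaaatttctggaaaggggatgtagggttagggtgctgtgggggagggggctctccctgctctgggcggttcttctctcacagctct

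Motifs were searched on both strands, and no matches overlapped each other in these windows. The purine-rich core GAGGAA of ETS factors, the family of the myeloid factor PU.1, matched once in C1qb, 30 to 25 bases before the start, and once in C1qc on the opposite strand, 193 to 188 bases before the start. It also occurs in 23.3% of 32851 RefSeq promoter windows of the same length. The core TGCTGA of MAF factors matched in C1qb, 131 to 126 bases before the start, and occurs in 16.1% of windows. The same MAF core matched in the windows of C3 and, at 2 places, Cd55. The Cd55 window (chr1:130462745-130462994) lies inside the RefSeq span of Cd55, which ends at 130465009, and so not before the whole gene. TGANTCA for AP-1 (6.75% of windows), GAAANNGAA for interferon-regulated factors (7.13%) and TTCNNNGAA for STAT factors (7.02%) had no match in the 5 windows, and the window of Cfp held none of the motifs searched. These matches describe letters only.

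**Figure D2:**
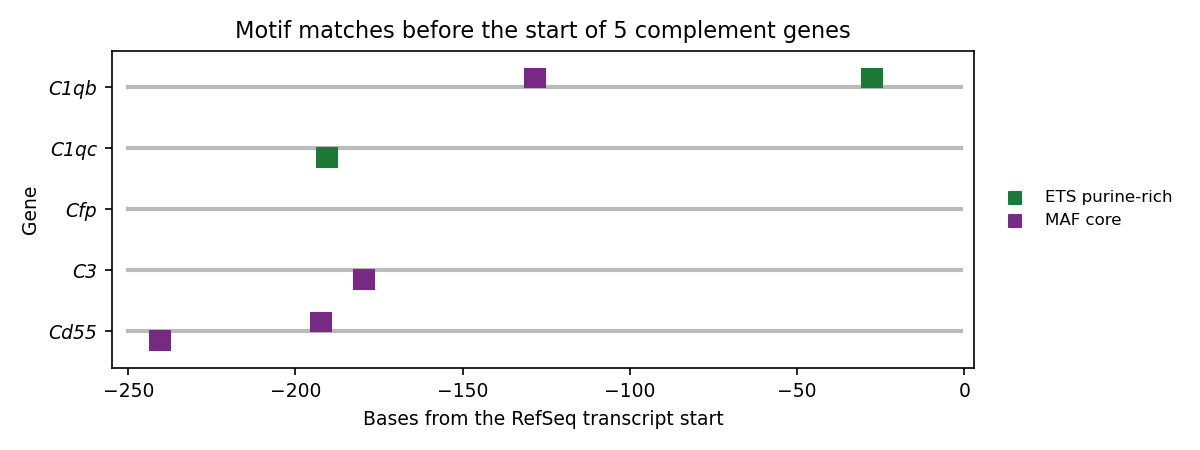
Matches to the ETS core (green) and the MAF core (purple) in the 250 bases before the RefSeq transcript start of 5 complement genes; the x axis gives bases from the start, and marks above or below a line are on the gene's strand or the opposite strand. The C1qb match nearest the start is the ETS core at 30 to 25 bases, and Cfp shows no match.

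C1q, the recognition part of the classical pathway, held the largest levels and folds of the 9 genes. C1qb, the B chain, was at 2409 FPKM in CD301b macrophages, against 724 FPKM in F4/80-negative cells, a ratio of 3.33. It ranked 17th by level among all genes in CD301b macrophages, against 124th in F4/80-negative cells. C1qa, the A chain, was at 1530 FPKM in CD301b macrophages, against 425 FPKM in F4/80-negative cells, a ratio of 3.60. C1qc, the C chain, was at 1259 FPKM in CD301b macrophages, against 408 FPKM in F4/80-negative cells, a ratio of 3.08. All 3 had an adjusted p of 0.000999, by Cuffdiff in the authors' deposited table, which is the smallest value that table allows. The log2 folds of C1qa, C1qb and C1qc exceeded those of 99.5%, 99.4% and 99.3% of tested genes.

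The order of the chains by level, C1qb, C1qa and C1qc, was the same in both populations. Per length, C1qb stood at 1.58 times C1qa in CD301b macrophages and 1.70 times in F4/80-negative cells. C1qc stood at 0.823 times C1qa in CD301b macrophages and 0.960 times in F4/80-negative cells. Whether these proportions differ was not tested. Together the chains reached 5198 FPKM in CD301b macrophages and 1557 FPKM in F4/80-negative cells, which is 0.945% of all summed FPKM in CD301b macrophages and 0.299% in F4/80-negative cells. They made up 88.7% of the summed level of the 9 genes in CD301b macrophages and 79.2% in F4/80-negative cells. No 50-base word of the C1q transcripts occurred in the transcripts of another gene.

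Among the 182 other genes at 500 FPKM or more in CD301b macrophages, those with the log2 fold nearest to that of C1qa (1.84) were Adgre1 (1.88), C1qb (1.73), Ccl8 (1.96), Apoe (1.68) and Pltp (1.63), followed by C1qc (1.62). Ccl8 encodes a monocyte attractant, Apoe a lipid carrier and Pltp the phospholipid transfer protein. With 1 value in each of 2 populations, the likeness is that of a single fold.

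C4b and C2 supply the enzyme that cleaves C3 in the classical and lectin pathways, and they went in opposite directions. C4b (gene 12268, chromosome 17, 34728139 to 34743902), which encodes complement C4, was at 47.0 FPKM in CD301b macrophages, against 30.2 FPKM in F4/80-negative cells. The ratio was 1.56 and the adjusted p 0.0190, by Cuffdiff in the authors' deposited table. C4b has a close copy, C4a, which encodes the sex-limited protein. Of the 50-base words in the C4b transcript, 35.2% also occur in C4a, so the split of their reads is uncertain. C4a was at 4.03 FPKM in CD301b macrophages and 2.70 FPKM in F4/80-negative cells and was not past the threshold (adjusted p = 0.0961, Cuffdiff in the authors' deposited table). The level of C4b was 11.7 times that of C4a in CD301b macrophages and 11.2 times in F4/80-negative cells.

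C2 (gene 12263, chromosome 17, 34862602 to 34882100), the protease that joins C4b, was the single complement gene of the 9 that was lower. It was at 8.07 FPKM in CD301b macrophages, against 12.6 FPKM in F4/80-negative cells, so the ratio was 0.642. The adjusted p was 0.0346, by Cuffdiff in the authors' deposited table. Its neighbour Cfb begins 87 bases away on the same strand. Cfb (gene 14962, chromosome 17, 34856374 to 34862514) encodes factor B, the counterpart of C2 in the alternative pathway. It was at 130 FPKM in CD301b macrophages, against 75.2 FPKM in F4/80-negative cells, a ratio of 1.72 with an adjusted p of 0.00182 (Cuffdiff, the authors' deposited table). Cfb stood at 16.1 times C2 in CD301b macrophages and 5.98 times in F4/80-negative cells.

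Cfb was the only one of the 9 genes with more than 1 transcript in the table. NM_008198 held 96.0% of its level in CD301b macrophages (125 FPKM) and 94.9% in F4/80-negative cells (71.4 FPKM). NM_001142706, at 5.17 FPKM in CD301b macrophages and 3.86 FPKM in F4/80-negative cells, was not past the threshold (adjusted p = 0.545, Cuffdiff in the authors' deposited table). GENCODE also annotates Gm20547 across C2 and Cfb on the same strand, and 58.0% of the 50-base words of C2 and 81.8% of those of NM_008198 occur in it. Gm20547 had no row in the table used here, and its share in the C2 and Cfb values was not tested. On the opposite strand, 161 exon bases of C2 overlap Zbtb12, which was at 1.93 FPKM in CD301b macrophages and 1.45 FPKM in F4/80-negative cells.

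C3 (gene 12266, chromosome 17, 57203967 to 57228136), the protein on which all complement pathways converge, was at 96.8 FPKM in CD301b macrophages and 106 FPKM in F4/80-negative cells. The ratio was 0.914 and the adjusted p 0.700, by Cuffdiff in the authors' deposited table. C3 stood at 0.746 times Cfb in CD301b macrophages and 1.41 times in F4/80-negative cells. Cfp (gene 18636, chromosome X, 20925454 to 20931555) encodes properdin, which stabilises the C3-cleaving enzyme of the alternative pathway. Its level was 376 FPKM in CD301b macrophages, against 178 FPKM in F4/80-negative cells, a ratio of 2.11. The adjusted p was 0.000999 (Cuffdiff, the authors' deposited table), and Cfp ranked 240th by level in CD301b macrophages, against 431st in F4/80-negative cells. It was the fourth of the 9 genes by level in both populations and by log2 fold (1.07).

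Cd55 (gene 13136, chromosome 1, 130429798 to 130465009), the decay-accelerating factor that dissociates C3-cleaving enzymes, had the lowest level of the 9 genes. It was at 3.88 FPKM in CD301b macrophages and 5.90 FPKM in F4/80-negative cells. The ratio was 0.657, and the adjusted p of 0.0567, by Cuffdiff in the authors' deposited table, missed the threshold. Of its 50-base words, 13.3% occur in its close copy Cd55b. Cd55 also shares 102 exon bases with Gm16083, an antisense gene, and whether the counting used strand is not given in sources used here.

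**Figure D3:**
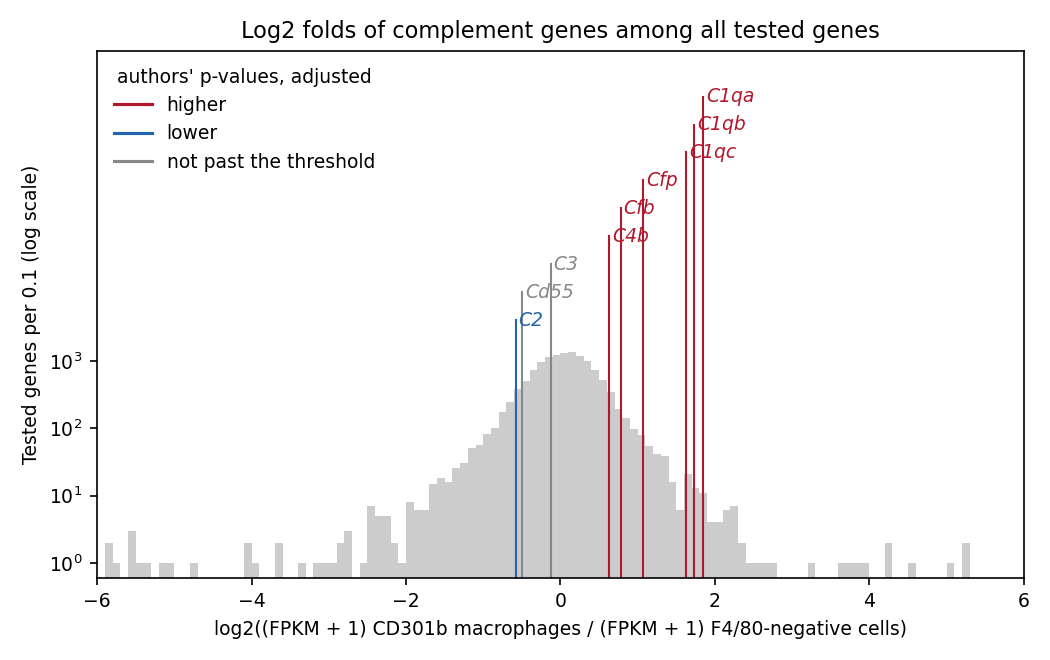
Log2 folds of the 9 complement genes (vertical lines; line height has no meaning) over the number of tested genes per step of 0.1 (grey bars, log axis), both as log2 of (FPKM + 1) in CD301b macrophages over F4/80-negative cells; 40 tested genes lie outside the axis. The C1q chains stand at 1.62 to 1.84, and C2 at -0.58 is the single line called lower.

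Of 55 further complement genes listed by role, 53 were in the table and 29 were tested. CD301b macrophages had 10 higher, 5 lower and 14 not past the threshold, and the median log2 fold of those tested was 0.12. Over all tested genes, 11.0% were higher and 6.20% lower, with a median log2 fold of 0.05. The remaining 24 were not tested by the authors. This list was also chosen with earlier results of these data known, so its counts are a description only.

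Of the proteases that work with C1q, C1s1 was lower and C1ra was not past the threshold. C1s1, the C1s protease that cleaves C4 and C2, was at 26.7 FPKM in CD301b macrophages, against 48.6 FPKM in F4/80-negative cells, and was lower (adjusted p = 0.00258, Cuffdiff in the authors' deposited table). C1ra, the C1r protease that activates C1s, was at 28.2 FPKM in CD301b macrophages and 33.3 FPKM in F4/80-negative cells (adjusted p = 0.459, Cuffdiff in the authors' deposited table). Per length, C1qa stood at 57.2 times C1s1 in CD301b macrophages and 8.75 times in F4/80-negative cells. C1s2, a close copy of C1s1, was also lower, at 1.60 FPKM in CD301b macrophages and 2.72 FPKM in F4/80-negative cells. Of the 50-base words in C1ra, 48.0% occur in C1rb, and of those in C1s1, up to 24.6% occur in C1s2. Serping1, the C1 inhibitor that blocks C1r and C1s, was lower as well, at 108 FPKM in CD301b macrophages against 161 FPKM in F4/80-negative cells (adjusted p = 0.0303, Cuffdiff in the authors' deposited table).

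Other pattern-recognition starters split. Fcna, a ficolin that starts the lectin pathway, was higher at 36.9 FPKM in CD301b macrophages, against 9.80 FPKM in F4/80-negative cells, a ratio of 3.77. Ptx3, a pentraxin that binds C1q, was lower at 30.1 FPKM in CD301b macrophages, against 81.1 FPKM in F4/80-negative cells, a ratio of 0.371. Both had an adjusted p of 0.000999 (Cuffdiff, the authors' deposited table). Of 12 fibroblast markers, 4 were lower and none was higher, where 11.0% of all tested genes were higher and 6.20% lower. Their summed level was 5695 FPKM in CD301b macrophages and 8243 FPKM in F4/80-negative cells, with no marker at 0. Keratinocyte markers were lower in 2 of 10 (175 FPKM in CD301b macrophages, 229 FPKM in F4/80-negative cells). These were Epcam and Cdh1, and no listed keratin gene passed the threshold. Endothelial markers passed the threshold in none of 8 (66.8 FPKM in CD301b macrophages, 78.8 FPKM in F4/80-negative cells). Of 10 mast cell and basophil markers, 9 were tested by the authors, of which 6 were lower and none was higher. All 10 together summed to 21.2 FPKM in CD301b macrophages and 59.6 FPKM in F4/80-negative cells. Of 11 neutrophil markers in the table, 9 were tested by the authors, of which 3 were lower and 1 was higher. All 11 together summed to 2188 FPKM in CD301b macrophages and 3927 FPKM in F4/80-negative cells, with Elane at 0 in both. Most of that sum was S100a8 and S100a9, and the other 9 neutrophil markers summed to 158 FPKM in CD301b macrophages and 177 FPKM in F4/80-negative cells. Of 9 lymphocyte markers in the table, 7 were not tested by the authors, and the 2 tested, Cd3d and Cd3g, were not past the threshold (summed level of the 9 markers 3.69 FPKM in CD301b macrophages, 4.42 FPKM in F4/80-negative cells). The part of these cells in the values of C1s1, Serping1, Ptx3, C2, C3 and C4b was not tested.

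Of the further membrane regulators, 1 of 2 tested was higher. Cr1l, which encodes the rodent membrane inhibitor Crry, was at 52.0 FPKM in CD301b macrophages, against 33.3 FPKM in F4/80-negative cells. It was higher (adjusted p = 0.0155, Cuffdiff in the authors' deposited table), with 28.6% of its 50-base words also in the pseudogene Crry-ps. Of 7 terminal components, 3 were tested by the authors and 1 was higher, where 11.0% of all tested genes were higher. That was C6 of the membrane attack complex, at 2.46 FPKM in CD301b macrophages, against 0.497 FPKM in F4/80-negative cells. The other 2 tested were not past the threshold, and the 4 not tested were under 1 FPKM in both populations.

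Of 12 tested complement receptors and binding proteins, 7 were higher and 1 was lower, where 11.0% of all tested genes were higher and 6.20% lower. They belong to the list chosen with earlier results known, so these counts too are a description only. C3ar1, the receptor for the C3a fragment, was at 283 FPKM in CD301b macrophages, against 92.7 FPKM in F4/80-negative cells, a ratio of 3.05. C5ar1, the receptor for C5a, was at 170 FPKM in CD301b macrophages, against 75.3 FPKM in F4/80-negative cells, a ratio of 2.26. Cd93, a membrane glycoprotein once described as a C1q receptor, was at 101 FPKM in CD301b macrophages, against 31.8 FPKM in F4/80-negative cells, a ratio of 3.16. These receptors each had an adjusted p of 0.000999, by Cuffdiff in the authors' deposited table.

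Vsig4, a macrophage receptor for C3b fragments, was higher at 2.14 FPKM in CD301b macrophages, against 0.344 FPKM in F4/80-negative cells. Lair1, an inhibitory receptor that binds collagens and C1q, was higher at 27.2 FPKM in CD301b macrophages, against 12.2 FPKM in F4/80-negative cells. C5ar2, the second C5a receptor, was higher at 6.39 FPKM in CD301b macrophages, against 3.52 FPKM in F4/80-negative cells. That call rested on NM_001146005 (6.04 FPKM in CD301b macrophages, 1.55 FPKM in F4/80-negative cells), while NM_176912 (0.353 FPKM in CD301b macrophages, 1.97 FPKM in F4/80-negative cells) did not pass.

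The integrin chains of complement receptors 3 and 4 differed in direction. Itgam, the alpha chain of complement receptor 3, was higher at 240 FPKM in CD301b macrophages, against 154 FPKM in F4/80-negative cells. Its main transcript, NM_008401, carried that call (179 FPKM in CD301b macrophages, 101 FPKM in F4/80-negative cells). NM_001082960 (60.9 FPKM in CD301b macrophages, 53.0 FPKM in F4/80-negative cells) did not pass. A limit is that 73.9% of the 50-base words of NM_008401 also occur in the annotated gene Gm49368. Itgax, the alpha chain of complement receptor 4 and also a dendritic cell marker, was lower at 25.4 FPKM in CD301b macrophages, against 67.9 FPKM in F4/80-negative cells. Itgb2, their shared beta chain, was at 130 FPKM in CD301b macrophages and 132 FPKM in F4/80-negative cells and was not past the threshold. Calr (456 FPKM in CD301b macrophages, 436 FPKM in F4/80-negative cells), C1qbp (51.5 FPKM in CD301b macrophages, 56.8 FPKM in F4/80-negative cells) and Lrp1 (48.5 FPKM in CD301b macrophages, 44.5 FPKM in F4/80-negative cells), which encode C1q-binding or uptake proteins, were not past the threshold either.

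**Figure D4:**
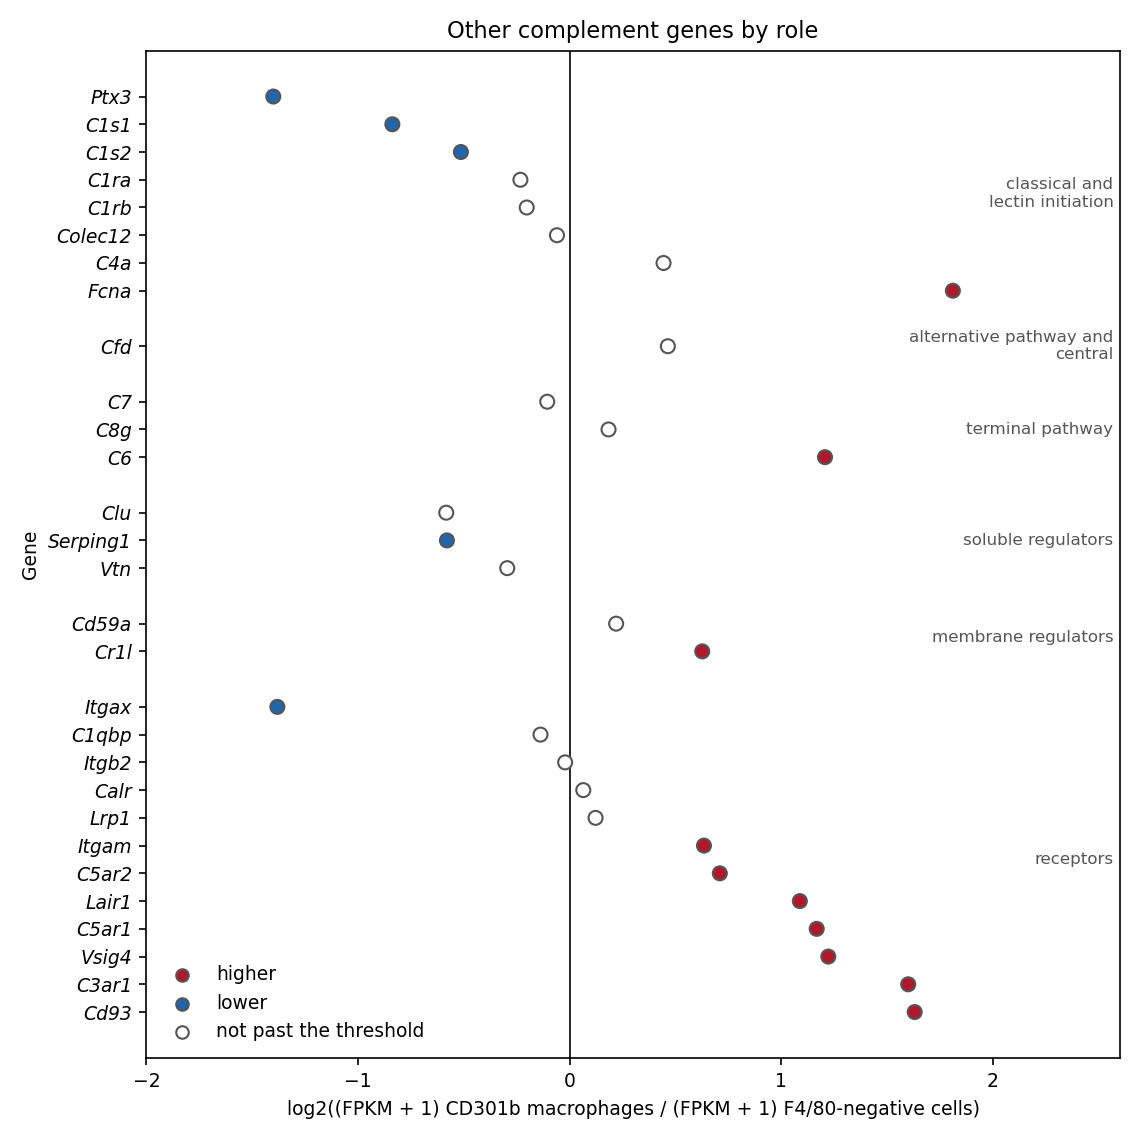
Log2 folds, as log2 of (FPKM + 1) in CD301b macrophages over F4/80-negative cells, of the tested complement genes of that list reaching 1 FPKM in either population, grouped by role; red is higher, blue lower and white not past the threshold. The receptors hold 7 red points and 1 blue point, Itgax.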

How the data were processed

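RNA was sequenced with an Illumina TruSeq mRNA protocol in 2 libraries per population, per the labels' protocols. Alignment and testing tools in the submitters' processing notes are TopHat2 2.0.2 and Cuffdiff 2.0.2, with mm9 as the build. The authors deposited 1 table of 34535 transcripts with, per the file headers, 1 FPKM per population and transcript and an unadjusted p-value; how libraries were combined is not stated in sources used here. The p-value deposited by the authors has a lower limit of 5e-05. In all 34535 rows, the deposited call was the one that Benjamini-Hochberg adjustment at 0.05 over the 16921 tested transcripts gives. The table's loci overlapped those of RefSeq GRCm38.p6 in 99.2% of matched accessions, and 17253 loci began exactly 1 base before the RefSeq start. The table's coordinates thus match GRCm38, not the mm9 named in the processing notes. Positions printed are RefSeq's on GRCm38, counted from 1.

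A gene counted as higher (or lower) where 1 or more of its transcripts passed that way, none passed the opposite way and its summed FPKM had the same direction; its adjusted p is the smallest among its transcripts. Log2 folds use a pseudocount of 1. No test was run here, since values per library were not used. Promoter sequences are from RefSeq (GRCm38.p6), and 50-base words were compared over GENCODE M21 transcripts. Every one of the 9 genes, other complement genes that were called and reached 1 FPKM, and uncalled ones at 20 FPKM or more were to be named, with close copies named beside them. Some complement genes are not reported here. The members and lists were chosen with earlier results of these data known. The calling rule was tested on simulated data with 1 transcript per gene. How it handles several transcripts of a gene was not tested there. The software was scipy 1.17.1, numpy 2.4.6, pandas 2.3.3 and Python 3.11.15.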

Additional observations from a re-analysis of the deposited data

How the results depend on the processing

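No paired analysis was possible because the table gives 1 value per population, and for the same reason leaving out each replicate was not run. A pseudocount of 0.1 or 5 changes the size of a log2 fold but cannot change its direction. The log2 shift of -0.11, from scaling each population to its median gene, was smaller than the smallest positive fold (0.62, C4b). It could therefore reverse none of the 9 directions. With the most abundant transcript alone, which could alter Cfb alone, the direction of each of the 9 log2 folds was the same. The calls of the 9 genes were the same with the most abundant transcript alone, where again Cfb alone could differ. A minimum of 1 FPKM and the authors' own significance column could change no call of the 9 genes. All 9 exceeded that level, and that column holds the same calls as the adjustment used here. At an adjusted p of 0.01 (Cuffdiff, the authors' deposited table), 5 of the 9 genes were higher and 0 were lower, where 6.50% and 3.54% of tested genes were higher and lower. C4b and C2 lost their calls there. At that threshold, 9 further complement genes were higher (Cr1l lost its call) and 3 were lower (C1s1, Itgax and Ptx3, while C1s2 and Serping1 lost theirs), and 848 genes were higher and 461 lower over the whole table. The depth of the libraries is unknown, so no limit from counting can be given.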
